A study of Mus musculus with 12 samples.

Results

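The 8 genes described here encode the precursors of peptides that hypothalamic neurons use to control feeding, wakefulness and hormone release. They are Hcrt, Pmch, Agrp, Pomc, Cartpt, Trh, Gal and Ghrh, with 8 rows among the 55385 genes of the expression table. They were chosen by name, with earlier results of these data known. The data were FPKM values (a level scaled to the depth of the library and already divided by transcript length) from poly(A) RNA of the brains of 12 wild-type male C57/BL6J mice, 3 in each of the groups C_W, C_O, MS_W and MS_O. The mice were bought at 8 weeks of age. The C_W group had no stress and was given water, the C_O group had no stress and a daily dose of 200 mg/kg krill oil, the MS_W group had chronic unpredictable mild stress (CUMS) and water, and the MS_O group had CUMS and krill oil. CUMS is a schedule of changing mild stressors that is used to induce depression-like behavior, and it lasted 4 weeks, while krill oil was given for 5 weeks. Water was the control for the oil, so that the krill oil cannot be told apart from the giving of an oil. The library of mouse 31 of the MS_W group is written MS_W31, and the others likewise.

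These peptides are made as long precursors, which convertases cut in the secretory granules of the neuron. Hcrt (orexin) and Pmch (melanin-concentrating hormone) are expressed by separate neurons of the lateral hypothalamus. Agrp and Pomc mark opposing neurons of the arcuate nucleus, of which the first promote feeding and the second restrain it, and both act on melanocortin receptors. Cartpt (cocaine and amphetamine regulated transcript) and Gal (galanin) are made in several hypothalamic nuclei and also in other parts of the brain. Trh (thyrotropin-releasing hormone) and Ghrh (growth hormone-releasing hormone) are released to the pituitary, and Trh is also made outside the hypothalamus.

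The labelled tissue was brain, and the study collected whole brains, but regional markers were not alike in the 12 libraries. The summed FPKM of 5 cerebellar genes was 166 in C_O72 and 652 in MS_W95, and it was between 1.69 and 2.69 in the other 10 libraries. The summed FPKM of 7 hindbrain genes was 74.9 and 27.5 in the same 2 libraries and at most 0.0617 in the other 10. These 2 libraries correlated with each other at r = 0.97 over the tested genes and at no more than 0.937 with any other, while the other 10 correlated with one another at 0.959 or more. The summed FPKM of 16 transcription factors of hypothalamic development (among them Nkx2-1, Otp, Fezf1, Isl1 and Sim1) was 0.379 to 0.715 in the C_W group, 0.709 to 5.7 in the C_O group, 3.84 to 7.24 in the MS_W group and 0.972 to 1.58 in the MS_O group, and 6 of the 16 were listed at 0.0001 in all 3 C_W libraries. The part of these differences in the results below was not tested, and in RNA of a whole tissue fewer cells of a type and less RNA per cell cannot be told apart. The totals of estimated counts were 50912906 to 75678721 per library. A gene listed at 0.0001 had no estimate, and 3 counts corresponded to an FPKM of 0.0466 to 0.0692 for Hcrt, with a lowest value of 0.0253 (Trh) and a highest of 0.075 (Ghrh) over all members and libraries. Values below it, such as that of Ghrh in MS_O78, rest on 3 or fewer counts. These limits cover counting error only.

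The 8 genes lie on 8 chromosomes (mm10). Hcrt is at chr11:100761069-100762931 (minus strand), Pmch at chr10:88091072-88092375 (plus), Agrp at chr8:105566698-105637393 (minus), Pomc at chr12:3954951-3960618 (plus), Cartpt at chr13:99898489-99901091 (minus), Trh at chr6:92242061-92244650 (minus), Gal at chr19:3409915-3414544 (minus) and Ghrh at chr2:157329497-157346655 (minus). In the GENCODE vM21 annotation of the same build, exons of 6 members overlap no exon of another gene. An exon of Pmch overlaps Parpbp on the opposite strand, and Parpbp had an FPKM of 0.0376 to 0.296 in the 12 libraries. Exons of the long transcripts of Agrp overlap Ctcf on the opposite strand (FPKM 10.6 to 16.9) and Gm5914 on the same strand (0.431 to 2.67), so that the level of Agrp is uncertain. The libraries kept the strand of the RNA, but whether counting used it is not given in the sources used here.

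RefSeq promoter sequence (GRCm38.p6) was matched for 7 of the 8 members. The 100 bases before the start site are shown for Hcrt, Pmch and Pomc, whose highest values fell in the same library, and for Trh and Cartpt, whose highest values fell in others. Capitals mark the letters TATAA, the core of a TATA box, on either strand. Hcrt at chr11:100762932-100763031 and Trh at chr6:92244651-92244750 are read from the minus strand, Pmch at chr10:88090972-88091071 and Pomc at chr12:3954845-3954944 from the plus strand, and Cartpt at chr13:99900684-99900783 from the minus strand.
Hcrt: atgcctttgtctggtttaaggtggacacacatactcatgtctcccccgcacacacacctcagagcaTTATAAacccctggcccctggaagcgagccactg
Pmch: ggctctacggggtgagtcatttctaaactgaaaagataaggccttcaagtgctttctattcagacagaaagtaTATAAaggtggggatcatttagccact
Pomc: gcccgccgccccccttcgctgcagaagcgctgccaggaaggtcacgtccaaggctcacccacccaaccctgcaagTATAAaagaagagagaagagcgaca
Trh: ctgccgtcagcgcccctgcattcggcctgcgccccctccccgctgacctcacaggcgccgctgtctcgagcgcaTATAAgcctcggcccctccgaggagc
Cartpt: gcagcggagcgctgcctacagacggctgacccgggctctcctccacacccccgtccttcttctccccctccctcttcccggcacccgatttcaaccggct

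The letters TATAA were found in this window in Hcrt, Pmch, Pomc, Trh and Ghrh (in the second of its 2 RefSeq entries), and 10.2% of 32851 RefSeq promoters held them on either strand. They began 25 to 34 bases before the start site. The windows of Cartpt and Gal did not hold these letters. The RefSeq start site of Cartpt (99900683) lies within the gene range given above, as does that of the second Ghrh entry (157337426). The letters, GC content and positions given for them refer to these internal start sites. The GC content of the printed windows was 41% in Pmch, 54% in Hcrt, 61% in Pomc, 68% in Cartpt and 72% in Trh, so that the lateral hypothalamic pair had the lowest of the 5. Over 250 bases before the start site, the cAMP response element TGACGTCA was found in Cartpt only among the members, beginning 112 bases before the start (1.55% of all promoters), and its variant TGACCTCA in Trh only, beginning 57 bases before it (1.94%). These matches describe the letters and were not tested for function.

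The levels of the 8 genes differed widely within a library. In the C_W group the order by mean FPKM (± SD, n = 3) was Trh at 6.93 ± 4.86, Cartpt at 3.22 ± 1.21, Gal at 1.07 ± 0.792, Pomc at 0.699 ± 0.0883, Agrp at 0.227 ± 0.114 and Pmch at 0.139 ± 0.0225, and Hcrt and Ghrh were listed at 0.0001 in all 3 mice. The ranges of neighbors in this order overlapped for Trh and Cartpt, Gal and Pomc, and Agrp and Pmch, and did not for Cartpt and Gal or for Pomc and Agrp. The highest member was Trh in 5 libraries (2 of C_W and all 3 of MS_O), Cartpt in 5 (1 of C_W, 2 of C_O and 2 of MS_W), Gal in C_O72 and Pmch in MS_W31. Pmch was sixth in the C_W order and first in MS_W31.

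**Figure D1:**
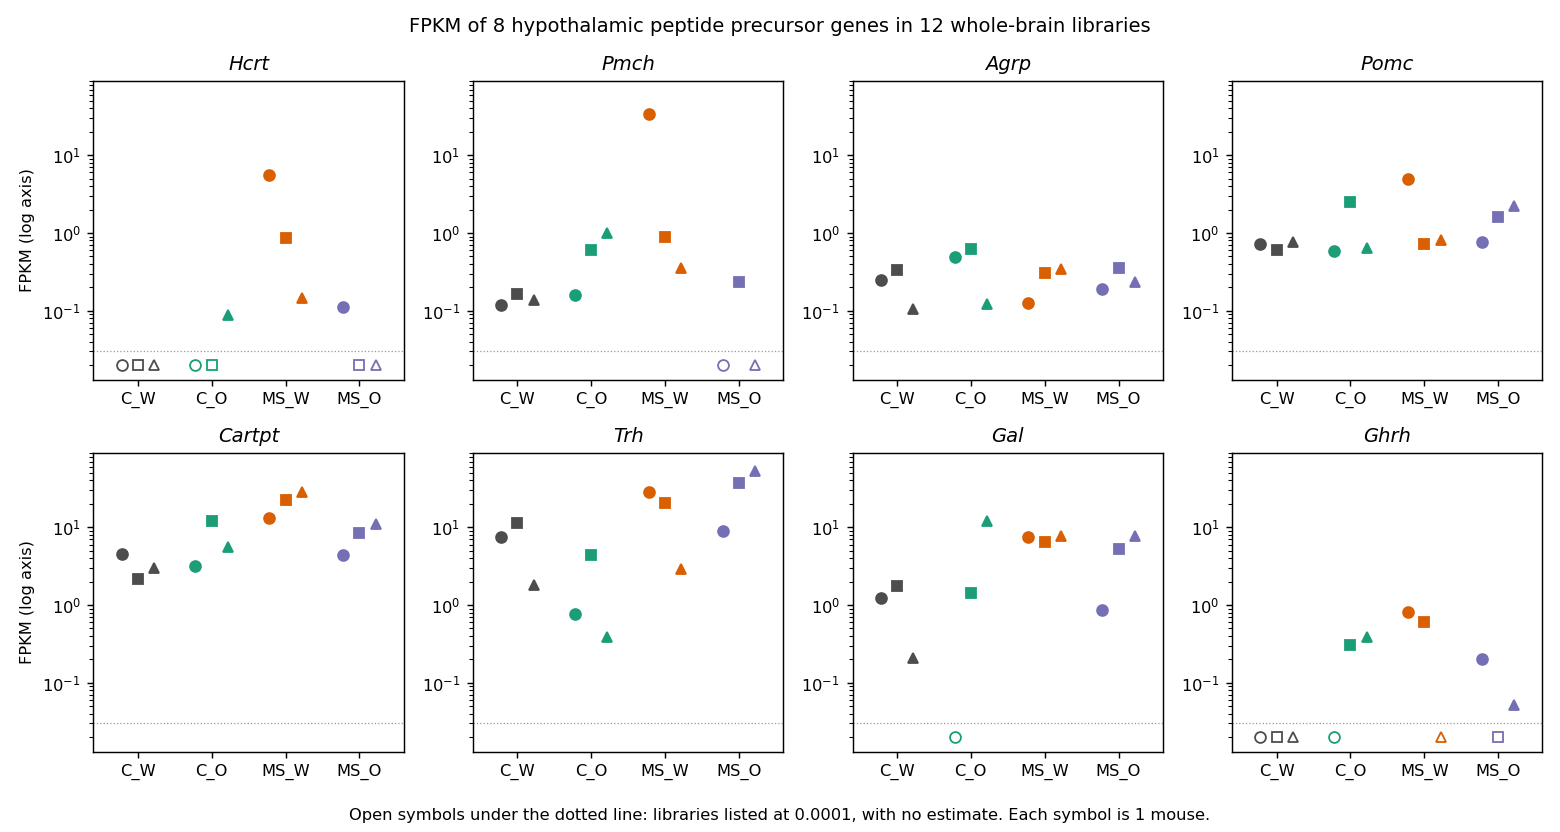
FPKM (log axis) of each of the 8 genes in the 12 libraries, with 3 mice in each group and 1 symbol per mouse (circle, square and triangle in the order of the mouse numbers). Open symbols under the dotted line are libraries listed at 0.0001, and the single high circles of Hcrt (5.6) and Pmch (34) in MS_W are both MS_W31.

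The lateral hypothalamic genes Hcrt and Pmch were high in MS_W31. The FPKM of Hcrt was listed at 0.0001 in C_W1, C_W64 and C_W70, at 0.0001, 0.0001 and 0.0877 in C_O15, C_O30 and C_O72, was 5.6, 0.858 and 0.144 in MS_W31, MS_W75 and MS_W95, and 0.11, 0.0001 and 0.0001 in MS_O13, MS_O46 and MS_O78. These levels came from 270, 38 and 8 estimated counts in the MS_W libraries and from at most 7 in any other, so that all 3 MS_W mice lay above all 9 others, with MS_W95 (0.144) close to MS_O13 (0.11). Compared to the C_W group, the difference in log2(FPKM + 1) was 1.27 ± 0.472 (SE) in the MS_W group, with an adjusted p of 0.401 by limma. Against 3 counts in each C_W library, the mean level of Hcrt in the MS_W group was at least 45.7-fold higher. Of the summed FPKM of Hcrt over the 12 libraries, 82.3% was in MS_W31, and without this mouse the log2 difference was 0.54.

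The FPKM of Pmch was 0.117, 0.162 and 0.137 in the C_W mice, 0.158, 0.61 and 1 in C_O15, C_O30 and C_O72, 34, 0.88 and 0.359 in MS_W31, MS_W75 and MS_W95, and 0.0001, 0.235 and 0.0001 in MS_O13, MS_O46 and MS_O78. The MS_W mice lay above the C_W mice without overlap, but C_O72 lay above both MS_W75 and MS_W95. MS_W31 held 90.3% of the summed FPKM and was 33.9-fold above the next library. The log2 difference between MS_W and C_W was 1.97 ± 0.94 (adjusted p = 0.489, limma), and it was 0.49 without MS_W31. Hcrt did not follow Pmch in the C_O group, with 0.0877 in C_O72 and 0.0001 in C_O30. Within a library, the log2 ratio of Hcrt to Pmch could be formed in 4 libraries only, with -2.6 in MS_W31, -0.04 in MS_W75, -1.31 in MS_W95 and -3.52 in C_O72. With no such ratio in any C_W library, the groups could not be compared by it.

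The arcuate pair did not move together over the 12 libraries. The r of Agrp and Pomc in log2(FPKM + 1) was 0 after rounding, and 0.42 over the 11 libraries without MS_W31. The FPKM of Agrp lay between 0.105 (C_W70) and 0.629 (C_O30), with 8 to 41 estimated counts per library and a mean (± SD, n = 3) of 0.227 ± 0.114 for the C_W, 0.413 ± 0.262 for the C_O, 0.258 ± 0.115 for the MS_W and 0.26 ± 0.0853 for the MS_O mice. All 4 groups overlapped. The log2 difference between MS_W and C_W was 0.04 ± 0.138 (adjusted p = 0.93, limma). In MS_W31, where Hcrt, Pmch and Pomc were highest, Agrp was at 0.126, the third lowest value after 0.122 in C_O72 and 0.105 in C_W70.

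The FPKM of Pomc was 0.721, 0.601 and 0.774 in the C_W mice, 0.591, 2.53 and 0.648 in C_O15, C_O30 and C_O72, 4.89, 0.724 and 0.815 in MS_W31, MS_W75 and MS_W95, and 0.761, 1.59 and 2.23 in MS_O13, MS_O46 and MS_O78. A level of 0.591 to 0.815 was thus found in 8 libraries of all 4 groups, and the 4 mice above it came from 3 groups. The log2 difference between MS_W and C_W was 0.64 ± 0.463 (adjusted p = 0.619, limma) and was 0.06 without MS_W31. Pomc is also made in the pituitary. The pituitary hormone genes Gh and Prl were at 47.3 and 1.38 in C_O72, where Pomc was 0.648, and Gh and Prl were listed at 0.0001 in MS_W31, where Pomc was highest. Others of the 9 pituitary genes did not follow Gh in C_O72. Tshb was at 0.253, Fshb at 0.0391 and Lhb at 0.00103 there, and Cga, Pou1f1, Tbx19 and Pitx1 were listed at 0.0001. In MS_W31 Tshb was at 0.171 and the rest were listed at 0.0001. The part of the pituitary in the level of Pomc was not tested. The log2 ratio of Agrp to Pomc ranged from -5.27 (MS_W31) to -0.27 (C_O15). Its mean was -1.77 ± 1.03 in C_W and -2.59 ± 2.32 in MS_W (SD, n = 3), with p = 0.7 in an exact two-sided permutation test, which cannot go below 0.1 with 3 mice against 3, and 0.914 after adjustment over 8 such tests.

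Cartpt gave the smallest p of the 8 genes between MS_W and C_W. Its FPKM was 4.55, 2.17 and 2.95 in C_W1, C_W64 and C_W70, 3.21, 11.9 and 5.55 in C_O15, C_O30 and C_O72, 13, 22.4 and 28.8 in MS_W31, MS_W75 and MS_W95, and 4.42, 8.56 and 11.1 in MS_O13, MS_O46 and MS_O78. All 3 MS_W mice lay above all 9 others. The mean was 21.4 ± 7.95 in MS_W and 3.22 ± 1.21 in C_W, which is a ratio of 6.64, and the log2 difference was 2.38 ± 0.445 (unadjusted p = 0.000285, adjusted p = 0.147, limma). The MS_O mean of 8.03 ± 3.38 was lower than that of MS_W by a log2 difference of -1.32 ± 0.445 (adjusted p = 0.788, limma). The log2 difference between MS_W and C_W was 2.14 to 2.72 under 24 alternatives, and its adjusted p ranged from 0.000134 (DESeq2) to 0.484, with 0.257 by edgeR. Unlike Hcrt and Pmch, Cartpt was highest in MS_W95, in which Hcrt was 0.144. The log2 ratio of Cartpt to Pomc was 1.41 in MS_W31 and 4.95 and 5.14 in MS_W75 and MS_W95, while it was 1.85 to 3.1 in the other 9 libraries. Its mean differed by 1.69 between MS_W and C_W (exact two-sided permutation p = 0.4, 0.914 adjusted over the 8 tests).

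The FPKM of Gal was 1.24, 1.76 and 0.207 in C_W1, C_W64 and C_W70, 0.0001, 1.43 and 12.1 in C_O15, C_O30 and C_O72, 7.46, 6.47 and 7.8 in MS_W31, MS_W75 and MS_W95, and 0.853, 5.28 and 7.74 in MS_O13, MS_O46 and MS_O78. The MS_W mice were alike, with a mean of 7.24 ± 0.691, and lay above all C_W mice (1.07 ± 0.792), whereas the C_O group ran from the lowest to the highest value of the series. The log2 difference between MS_W and C_W was 2.07 ± 0.833 (adjusted p = 0.437, limma) and was 2.02 in the 10 libraries without C_O72 and MS_W95. C_O72, the highest library for Gal, was also the highest for the hindbrain genes (summed FPKM 74.9), and Gal was at 7.8 in MS_W95, the other library with these genes, as well as at 7.74 in MS_O78, where they summed to 0.0327.

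Of the 2 releasing hormones, Ghrh was near the limit of detection. Its FPKM was listed at 0.0001 in all 3 C_W mice, at 0.0001, 0.304 and 0.389 in C_O15, C_O30 and C_O72, at 0.804, 0.599 and 0.0001 in MS_W31, MS_W75 and MS_W95, and at 0.2, 0.0001 and 0.0514 in MS_O13, MS_O46 and MS_O78, with at most 36 estimated counts. The MS_W and C_W groups touched at 0.0001. The log2 difference between them was 0.51 ± 0.197 (adjusted p = 0.425, limma), and against 3 counts in each C_W library the mean level in MS_W was at least 8.94-fold higher. Without C_O72 and MS_W95, in the latter of which Ghrh was at 0.0001, the log2 difference was 0.76 ± 0.122 with an adjusted p of 0.0288, the only alternative of 23 in which Ghrh passed the threshold (adjusted p 0.0288 to 0.866).

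Trh had the widest range among the members that were detected in every library. Its FPKM was 7.44, 11.5 and 1.83 in C_W1, C_W64 and C_W70, 0.77, 4.37 and 0.387 in C_O15, C_O30 and C_O72, 28.3, 20.3 and 2.91 in MS_W31, MS_W75 and MS_W95, and 8.84, 37.4 and 53 in MS_O13, MS_O46 and MS_O78. All 3 MS_O mice lay above all 3 C_O mice, with means of 33.1 ± 22.4 and 1.84 ± 2.2, a ratio of 18. The log2 difference was 3.53 ± 0.913 (unadjusted p = 0.0029, adjusted p = 0.479, limma), and 3.15 in the 10 libraries. Under 24 alternatives it was 3.04 to 4.55, with adjusted p from 0.047 (DESeq2) to 0.957, and 0.555 by edgeR. Trh followed 4 genes of the olfactory bulb, Doc2g, Cdhr1, Eomes and S100a5. Their summed FPKM was 44.5, 261 and 297 in MS_O13, MS_O46 and MS_O78 and 1.53, 37.8 and 4.17 in C_O15, C_O30 and C_O72, so that MS_O46 and MS_O78 were high in both. A gene is called differentially expressed (DEG) here where its unadjusted p is under 0.05 and the log2 ratio between the mean FPKM of both groups is above 1 in either direction. Of the 4 genes, 4 were called as higher in MS_O (2.82% of all tested genes), with a median log2 difference of 3.68 (0.033 over all tested genes), and 0 passed the adjusted threshold. Over the 12 libraries, log2(FPKM + 1) of Trh and of this sum correlated at r = 0.96 and rho = 0.99 (of 128 such pairs of a member and a list, in which both values come from the same library), whereas r of Trh with the sum of the 16 hypothalamic transcription factors was 0.07. With the sum of 4 midbrain dopamine genes (Th, Slc6a3, Pitx3 and En1), Trh correlated at r = 0.88 and rho = 0.9. That sum was mostly Th, at 64.9 of 66.2 in MS_O78, where Pitx3 and En1 were listed at 0.0001, so that this r mostly describes Th. En1 was detected only in C_O72 (0.768) and MS_W95 (3.74), where Trh was 0.387 and 2.91. The part of the olfactory bulb or of any other region in the difference of Trh was not tested.

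**Figure D2:**
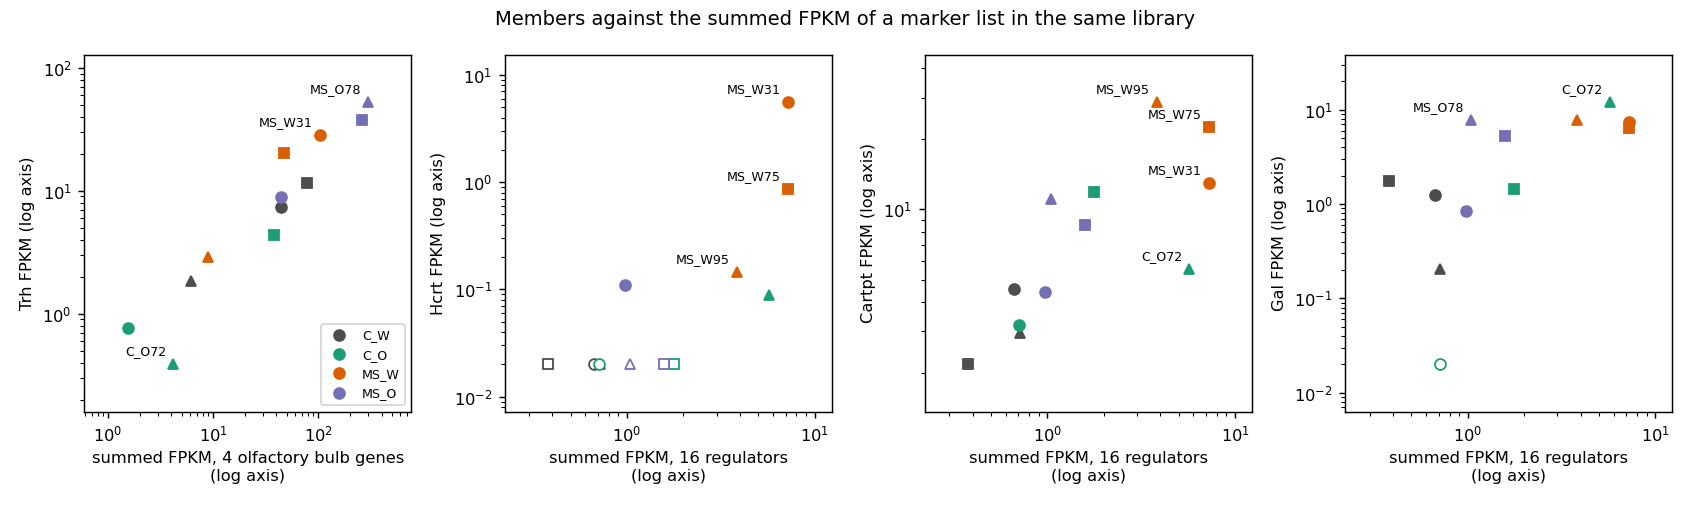
FPKM of Trh, Hcrt, Cartpt and Gal (vertical, log axes) against the summed FPKM of a marker list in the same library (horizontal, log axes; 4 olfactory bulb genes for Trh and 16 hypothalamic transcription factors for the others), with 1 symbol per mouse, colored by group, and open symbols for libraries listed at 0.0001. Trh is low in the libraries with a low olfactory bulb sum (C_O15 and C_O72) and highest in MS_O78 with the highest sum (r = 0.96), and Hcrt is above 0.5 only in MS_W31 and MS_W75, which had the 2 highest sums of the transcription factors. With that sum, r was 0.67 for Hcrt, 0.72 for Cartpt and 0.75 for Gal.

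For the comparison of CUMS with control under water (MS_W and C_W), 0 of the 8 members had an adjusted p under 0.05 by limma, beside 0.00467% of the 21393 tested genes. At an unadjusted p under 0.05 there were 4, beside 2245 of the 21393 tested genes. DESeq2 called 1 (Cartpt), beside 337 of the 23962 genes it tested, and edgeR 0, beside 1 of 22169. Each tested 7 members in every comparison, since the filter of edgeR removed Hcrt and DESeq2 gave no adjusted p for Pmch. By the DEG rule 4 members were called, all higher in MS_W (Hcrt, Cartpt, Gal and Ghrh), beside 2.50% of all tested genes called in that direction. For Hcrt and Ghrh that ratio was taken against a group listed at 0.0001. Without overlap between the groups were 4 members, Hcrt, Pmch, Cartpt and Gal, all higher in MS_W, beside 16.3% of all tested genes. The median log2 difference was 1.14 over the members and 0.062 over all tested genes. Since the members were chosen with earlier results of these data known, these counts and medians are no independent test of the set. The 4 calls of the DEG rule became 2 (Hcrt and Cartpt) without MS_W31, without C_W1 or without C_W70, and Cartpt met the rule in all 24 alternatives.

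Under krill oil (MS_O and C_O), 0 members had an adjusted p under 0.05 by limma (all genes 0.00467%), with 1 at an unadjusted p under 0.05 (1899 of 21393 genes). DESeq2 called 1 (Trh), beside 112 of the 22608 genes it tested, and edgeR 0. Trh was the member that met the DEG rule, with a higher value in MS_O (all genes in that direction 2.82%), and the member without overlap (8.90%), and it met the rule in all 24 alternatives. Compared to MS_W, the MS_O group again had 0 members past the adjusted threshold (0.00467% of all genes) and 2 at an unadjusted p under 0.05 (1303 of 21393 genes). It had 0 of the 7 tested by edgeR (Hcrt not tested) or by DESeq2 (no adjusted p for Pmch). Hcrt and Cartpt were called as lower in MS_O by the DEG rule (1.39%), and Hcrt, Pmch and Cartpt were lower without overlap (7.66%). Since this comparison shares the MS_W libraries with that of MS_W and C_W, MS_W31 enters both, and in both Hcrt was tested only through its MS_W values. Without MS_W31 the log2 difference of Hcrt between MS_O and MS_W went from -1.22 to -0.49 and that of Pmch from -2.06 to -0.57, while that of Cartpt went from -1.32 to -1.62.

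Between C_O and C_W, 0 members passed the adjusted threshold by limma (0% of all genes) and 0 an unadjusted p under 0.05 (760 of 21393 genes). There were 0 by edgeR and DESeq2, and 0 members met the DEG rule (1.76% of all genes) or were without overlap (9.42%). The interaction of CUMS and krill oil asks whether the difference between stressed and unstressed mice was another with the oil. It had 0 members past the adjusted threshold by limma (0% of all genes), 0 by edgeR and DESeq2, and 2 at an unadjusted p under 0.05 (1546 of 21393 genes). These were Cartpt with -2.1 ± 0.629 and Ghrh with -0.68 ± 0.279 on the log2 scale, both with an adjusted p of 0.665 by limma.

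**Figure D3:**
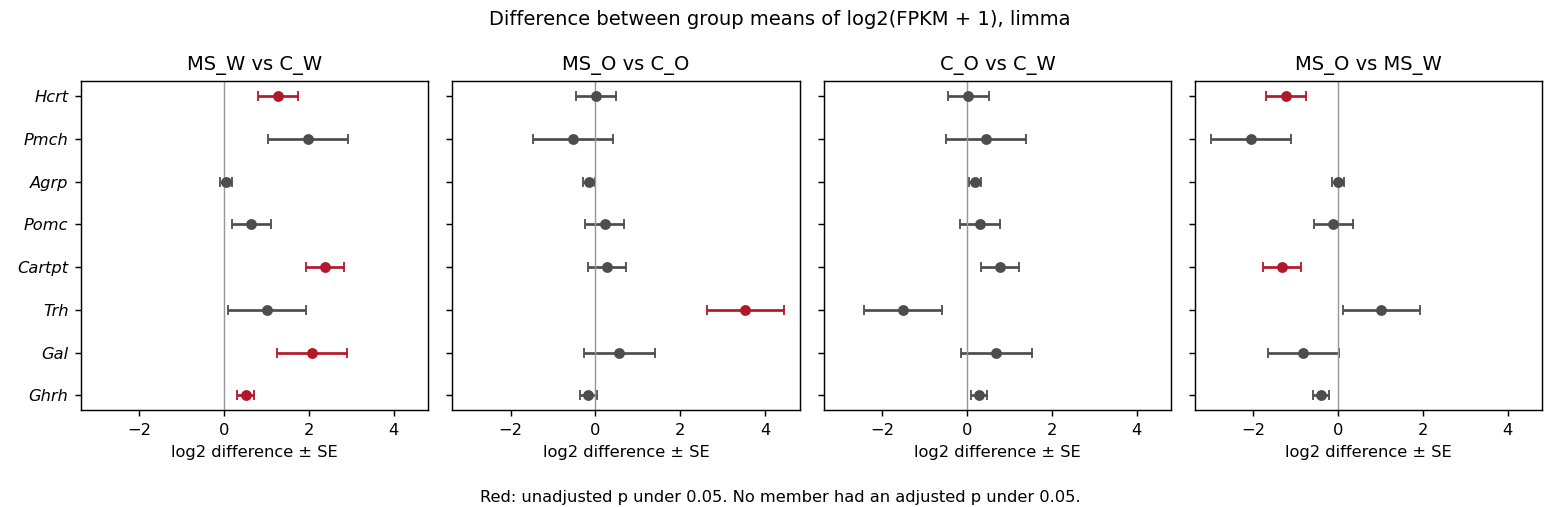
Differences between group means of log2(FPKM + 1) for the 8 genes in the 4 comparisons, with bars of 1 SE from the limma fit of all 12 libraries. Red points had an unadjusted p under 0.05, which were 4 members between MS_W and C_W, 1 (Trh) between MS_O and C_O and 2 (Hcrt and Cartpt) between MS_O and MS_W. Of the 21393 tested genes, 2245, 1899 and 1303 had such a p in these comparisons, in that order.

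The members formed no single pattern over the 12 libraries. Of their 28 pairs, 8 had a Pearson r of at least 0.5 in log2(FPKM + 1), and the median was 0.37, values that describe libraries of differing depth and region. Hcrt and Pmch had the highest r, 0.96, which was 0.56 over the 11 libraries without MS_W31. The r of Pmch and Pomc went from 0.72 to -0.05 and that of Hcrt and Pomc from 0.65 to -0.25 without this mouse. The pairs Hcrt and Ghrh (0.79 and 0.73 without MS_W31) and Cartpt and Gal (0.67 and 0.65) depended less on it. Agrp had no pair at or above 0.5.

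Among 13620 or 13621 other genes averaging an FPKM of 1 or more, those most like each member were listed by r over the 12 libraries. For Hcrt they were Pmch (0.963), Tro (0.905) and Gm12537 (0.855), with 0.556, 0.782 and 0.138 without MS_W31. For Pmch they were Tro (0.857), Btbd6 (0.848) and Rab5c (0.847), where r without MS_W31 was -0.426 for Btbd6 and 0 for Rab5c. For Trh they were Ptpro (0.962), Synpr (0.956) and Scgn (0.951), which stayed at 0.936 or above without MS_O78, the library with the highest Trh. For Cartpt they were Zbtb21 (0.953), Ccdc107 (0.947) and Doc2b (0.928), and for Gal they were Araf (0.959), Tspan12 (0.959) and Tmem255a (0.958). For Pomc they were Rreb1 (0.924), Fgfrl1 (0.862) and Usp21 (0.853), for Ghrh Tafa5 (0.973), Foxf2 (0.926) and Entpd6 (0.916), and for Agrp Gm25679 (0.815), Gm7292 (0.795) and Kri1 (0.795). These are descriptions over 12 libraries that share differences in region and depth.

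Some other peptides of the hypothalamus were highest in MS_W31 and MS_W75. Avp (vasopressin) was at 32.3 and 59.3 in these 2 mice and Oxt (oxytocin) at 20.2 and 32.7, while the next library was C_O30 with 7 and 5.31, and MS_W95 had 0.185 and 0.392. Ucn3, a urocortin of the corticotropin-releasing hormone family, was at 1.09 and 0.86 in MS_W31 and MS_W75 and listed at 0.0001 in the other 10. MS_W75 thus had higher Avp and Oxt than MS_W31 but 6.53-fold less Hcrt and, for Pmch, 0.88 against 34. Of the 22 peptide genes of this list, 16 were tested, 6 were called as higher in MS_W than in C_W by the DEG rule (2.50% of all tested genes) and 1 as lower (2.10%), and 0 passed the adjusted threshold by limma. Ucn3 was tested only through MS_W31 and MS_W75. Without overlap, 4 of the 16 were higher in MS_W (16.3% of all tested genes), while Npy, Vip and Kiss1 were lower. For the lower direction the share without overlap over all tested genes was not determined. Npy (neuropeptide Y) was at 133 to 148 in the C_W mice and 99.8, 88.7 and 14.2 in MS_W31, MS_W75 and MS_W95. Vip was at 9.17 to 10.3 in the C_W mice and 4.88, 4.7 and 1.99 in the same MS_W mice. Over all libraries Npy and Vip were lowest in C_O72 (8.85 and 0.9), followed by MS_W95. The summed FPKM of 6 cortical genes was also lowest in C_O72 (38.8) and MS_W95 (53.3). The part of regions outside the hypothalamus in Npy and Vip was not tested. The smallest unadjusted p were those of Nts (neurotensin), with a log2 difference of 2.83 ± 0.742 (adjusted p = 0.279), and Kiss1 (kisspeptin), with -0.58 ± 0.175 (adjusted p = 0.325). The median log2 difference of the 16 was 0.48 (0.062 over all tested genes).

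Nkx2-1 and Fezf1, of the hypothalamic transcription factors, were highest in the same 2 mice. Nkx2-1, which specifies the ventral hypothalamus, was at 1.37 in MS_W31 and 1.59 in MS_W75, 0.0001 in MS_W95 and at most 0.247 elsewhere. Fezf1 was at 0.821 and 0.694 in the same 2 mice and at most 0.0379 elsewhere. Otp, which is needed for several neuroendocrine cell types, was highest in C_O72 (3.24) and was 1.56, 1.36 and 1.07 in MS_W31, MS_W75 and MS_W95. Of the 16 factors 7 were tested, and 4 were called as higher in MS_W than in C_W by the DEG rule (2.50% of all tested genes), 0 by the adjusted threshold, with log2 differences of 0.53 ± 0.176 for Fezf1 (adjusted p = 0.357) and 0.83 ± 0.282 for Nkx2-1 (adjusted p = 0.36) by limma and a median of 0.53. Genes were tested by their mean over all 12 libraries, and Fezf1 and Nkx2-1 passed only through MS_W31 and MS_W75. The share called among the tested factors is therefore raised by this choice. Over the 12 libraries, the sum of the 16 factors correlated with Ghrh at r = 0.82, Gal at 0.75, Cartpt at 0.72, Hcrt at 0.67 and Pmch at 0.65. For Pomc, Trh and Agrp the r was 0.33, 0.07 and -0.23. The part of the differing hypothalamic markers in the levels of the members was not tested.

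**Figure D4:**
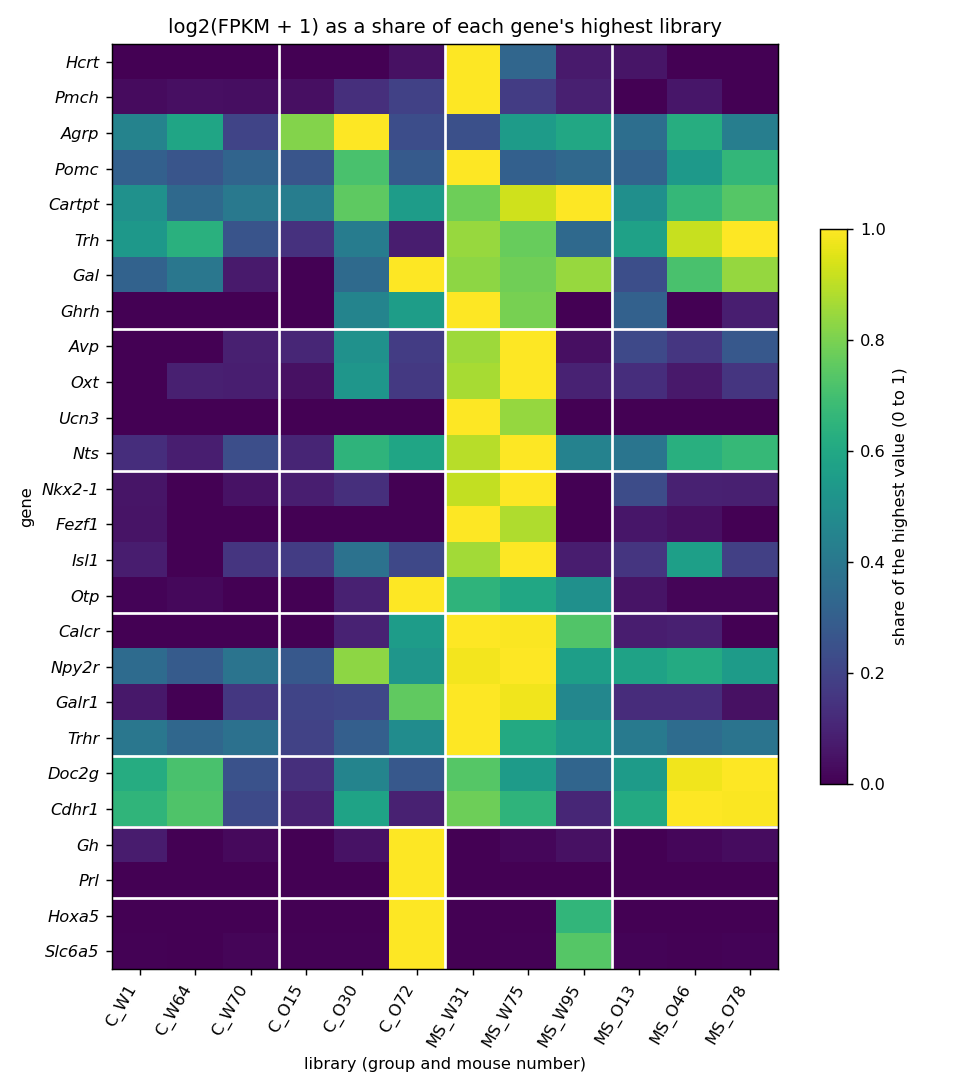
log2(FPKM + 1) of the 8 members (top) and of other peptides, hypothalamic transcription factors, receptors, olfactory bulb, pituitary and hindbrain genes in the 12 libraries, each row divided by its value in its highest library (scale 0 to 1). MS_W31 and MS_W75 are bright in Avp, Oxt, Ucn3, Nkx2-1 and Fezf1, Pmch is bright in MS_W31, and Gh, Prl, Hoxa5 and Slc6a5 are brightest in C_O72.

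The receptors of the 8 peptides were expressed at low to moderate levels. Mchr1, the receptor of melanin-concentrating hormone, was the highest, with an FPKM of 1.99 (MS_W95) to 13.7 (MS_W75). Of the 11 receptors 9 were tested, and the median log2 difference between MS_W and C_W was 0.03. By the DEG rule 3 were called as higher in MS_W (Galr1, Trhr and Mc3r), beside 2.50% of all tested genes, and 0 were past the adjusted threshold. Galr1 averaged under 0.1 outside MS_W and was tested only through its MS_W values, which raises the number called. Mc3r, a melanocortin receptor, differed by 0.37 ± 0.141 (adjusted p = 0.418, limma). Galr1, a galanin receptor, was at 0.56, 0.546 and 0.228 in the MS_W mice and at most 0.0743 in the C_W mice (log2 difference 0.47 ± 0.114, adjusted p = 0.266, limma), and C_O72 had 0.399. Trhr, the receptor of thyrotropin-releasing hormone, was at 1.37, 0.69 and 0.591 in the MS_W mice and 0.336 to 0.408 in the C_W mice (0.43 ± 0.144, adjusted p = 0.357). The melanocortin receptor Mc4r was at 0.244 to 1.57 and the orexin receptor Hcrtr1 at 0.165 to 1.9 over all libraries. Ghrhr was listed at 0.0001 in 11 of the 12 libraries.

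Among 8 receptors of other feeding signals, 7 were tested, 2 were called as higher in MS_W by the DEG rule (2.50% of all tested genes), and 0 passed the adjusted threshold (median log2 difference 0.25). Calcr, the calcitonin receptor, was at 1.3, 1.29 and 0.836 in the MS_W mice and listed at 0.0001 in all 3 C_W mice, with a log2 difference of 1.09 ± 0.155 and an adjusted p of 0.0606 by limma. Calcr averaged under 0.1 outside MS_W and was tested only through its MS_W values, which raises the number called. Npy2r, a neuropeptide Y receptor, was at 2.72, 2.81 and 1.12 in the MS_W mice and 0.469 to 0.674 in the C_W mice (0.98 ± 0.271, adjusted p = 0.291). Lepr, the leptin receptor, was at 0.185 to 0.658 in all libraries.

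Genes of the enzymes and granule proteins that handle such precursors gave 1 call by the DEG rule. Of 7 processing genes, 0 were called by the DEG rule between MS_W and C_W and 0 passed the adjusted threshold by limma (median log2 difference -0.13). The convertase gene Pcsk2 was at 58.6 to 68.1 in the C_W mice and 38.3, 42 and 20.6 in the MS_W mice (log2 difference -0.96 ± 0.462, adjusted p = 0.489). Qpct, which forms the pyroglutamate end found in thyrotropin-releasing hormone and orexin A, was at 3.65 to 3.89 in the C_W mice and 7.06, 7.17 and 4.94 in the MS_W mice (0.61 ± 0.159, adjusted p = 0.278). Of 5 granin genes, Scg2 was called as higher in MS_W by the DEG rule (1.03 ± 0.292, adjusted p = 0.303), beside 2.50% of all tested genes, and Chga differed by 0.39 ± 0.246 (adjusted p = 0.577).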

How the data were processed

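Poly(A) RNA of 12 mouse brains was sequenced. To make the deposited FPKM values, the authors trimmed reads with cutadapt 1.9, aligned them with HISAT2 2.0.4 to mm10 and estimated expression with StringTie 1.3.4d and Ballgown. The estimated counts in the same table were also deposited by the authors and follow from coverage. The submitters' notes also name edgeR and DESeq2. Totals of estimated counts were 50912906 to 75678721 per library. The 8 members and all gene lists were chosen with earlier results of these data known.

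From these values, limma 3.58.1 (R 4.3.3; lmFit, eBayes with trend) was fitted once to log2(FPKM + 1) of 4 groups over 21393 genes averaging an FPKM of 0.1 or more, with Benjamini-Hochberg adjustment over all of them. This mean is over all 12 libraries, so that a gene can pass through the group where it is high. Among genes called as higher in MS_W, Hcrt, Ucn3, Nkx2-1, Fezf1, Galr1 and Calcr averaged under 0.1 in the libraries outside MS_W. Nothing says that a mouse number is shared by groups, and each library is 1 mouse. Ratios within a library were compared by exact permutation tests. Named were the members, the 2 genes of each other list with the smallest unadjusted p between MS_W and C_W, and the 3 genes most like each member, and other genes of the lists were named after their values were seen. Other settings tried were a pseudocount of 0.1 or 0.01, all genes unfiltered, only genes averaging an FPKM of 1 or more, quantile normalization, median centring, fits of 2 groups, robust eBayes, edgeR 4.0.16 (quasi-likelihood, TMM, with and without filterByExpr) and DESeq2 1.42.0 on rounded estimated counts, each library left out, and 10 libraries without C_O72 and MS_W95. Tests were checked on simulated data. Lower-case promoter sequence is from RefSeq (GRCm38.p6). Python 3.11.15 and matplotlib 3.10.9 were used for tables and figures.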

Additional observations from a re-analysis of the deposited data

How the results depend on the processing

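Of 927 values of the log2 difference of a member under another setting, 904 kept their direction and their side of the adjusted threshold, 20 changed sign and 3 passed the threshold, and the cause was not tested. Members past the adjusted threshold were 0 by limma in each comparison with every library left out in turn, and 1 by DESeq2 (Cartpt) and 1 in the 10 libraries without C_O72 and MS_W95 (Ghrh) between MS_W and C_W, and 1 by DESeq2 (Trh) between MS_O and C_O.

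The members called as DEG between MS_W and C_W (4) were 2 with a mean FPKM of at least 1, 2 in a fit of only these groups, and 2 to 4 with a library left out. Between MS_O and C_O (1) they were 2 with a pseudocount of 0.01, 2 in a fit of only these groups, 3 in the 10 libraries and 1 to 3 with a library left out (3 without C_O72), and those without overlap (1) were 2 in the 10 libraries and 1 to 3 with a library left out (3 without C_O15). Between C_O and C_W (0) they were 1 by edgeR, 1 by edgeR without its filter, 2 by DESeq2, 1 in the 10 libraries and 0 to 1 with a library left out, and those without overlap (0) were 1 in the 10 libraries and 0 to 3 with a library left out (3 without C_O15). Between MS_O and MS_W (2) they were 1 with a mean FPKM of at least 1, 1 in a fit of only these groups, 1 by DESeq2 and 1 to 3 with a library left out (1 without MS_O13, 3 without MS_W31).

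Signs changed for 9 log2 differences, none past the threshold. Between MS_W and C_W, Agrp (0.04) was -0.05 after median centring, -0.01 in the 10 libraries and -0.04 to 0.11 with a library left out. Between MS_O and C_O, Hcrt (0.01) was -0.01 after quantile normalization, -0.07 after median centring and -0.04 to 0.05 with a library left out, Cartpt (0.27) was -0.1 to 0.71 and Gal (0.56) -0.28 to 1.58. Between C_O and C_W, Pomc (0.31) was -0.07 to 0.51, and Gal (0.7) was -0.48 with a pseudocount of 0.01, -0.33 in the 10 libraries and -0.33 to 1.53 with a library left out. Between MS_O and MS_W, Agrp (0 after rounding) was -0.07 to 0.05 and Pomc (-0.11) -0.42 to 0.47 with a library left out, and Pomc was -0.72 to 0.16 in the interaction (-0.41).

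No paired analysis was possible because no mouse number is shared between groups. With 3 mice a group, the exact tests could not go below p = 0.1, and Hcrt, Pmch, Gal and Ghrh were at the limit of detection in 1 or more libraries.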

Other observations

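Genes of brain regions outside the hypothalamus also differed between the MS_W and C_W libraries in which the peptides were compared. The cortical genes Neurod6 and Slc17a7 were lower in MS_W, by log2 differences of -2.18 ± 0.846 and -1.82 ± 0.709 (both with an adjusted p of 0.425 by limma). Of 6 cortical genes, 2 were called as lower by the DEG rule, beside 2.10% of all tested genes. The striatal genes Drd2 and Ppp1r1b differed by 2.35 ± 0.8 (adjusted p = 0.358) and 1.76 ± 0.611 (adjusted p = 0.366), with 2 of 6 striatal genes called as higher, beside 2.50% of all tested genes. Of 5 thalamic genes 3 were called as higher, beside the same 2.50% of all tested genes, and Tcf7l2 differed by 0.68 ± 0.183 (adjusted p = 0.285) and Gbx2 by 0.79 ± 0.255 (adjusted p = 0.354).

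No gene of the remaining lists was called by the DEG rule between MS_W and C_W. The log2 differences were 0.06 ± 0.135 for Tshb and -0.08 ± 1.14 for Gh (pituitary), 1.34 ± 1.43 for Slc6a5 and 0.59 ± 0.663 for Hoxa5 (hindbrain), 2.22 ± 1.64 for Gabra6 and 2.28 ± 1.7 for Pcp2 (cerebellum), and 0.75 ± 0.722 for Eomes and -0.15 ± 1.33 for Cdhr1 (olfactory bulb). They were 0.75 ± 0.497 for En1 and 0.83 ± 0.781 for Th (midbrain dopamine), 1.36 ± 0.768 for Clic6 and 0.41 ± 0.773 for Kl (choroid plexus), and -0.57 ± 0.185 for Snap25 and 0.96 ± 0.504 for Aqp4 (general brain cell types). Their adjusted p were 0.352 to 0.983 by limma.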
